A study of Mus musculus with 6 samples.

Results

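The genes described here are 49 interferon-stimulated genes of the mouse, taken as a list of gene symbols and matched exactly to the symbols in the annotated expression table of the study. Of the 49 genes, 47 were among the 16111 genes of that table, and Oasl1 and Ifi44 were absent from it. After a filter on low counts, 44 of the 47 were tested as part of 11408 genes, and Oas1g, Ifit3b and Usp18 were too low to test. The genes compared came from cultured fetal liver macrophages of wild-type mice and of mice deficient in Ahrr, with 3 libraries in each group.

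Both groups were labelled as strain C57BL/6 RCC and came from fetuses at day E13.5. Every culture received 2% GM-CSF, a growth factor that keeps macrophages alive and dividing, for 5 weeks, and non-adherent cells were lysed for RNA. The wild-type libraries are called WT 1 to 3 and the others Ahrr-deficient 1 to 3 below, after the numbers in their titles. The labels give each library 1 mouse, but not how the Ahrr gene was disrupted, the sex of the fetuses or whether any were littermates. No interferon or other stimulus is named, so the levels are those of cells in culture medium alone as far as the labels say. Within a group the p-values measure the spread between these cultures only.

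Totals ranged from 3556106 counts in Ahrr-deficient 1 to 41668336 in Ahrr-deficient 2, so low genes were measured least precisely in Ahrr-deficient 1. In WT 2, the ribosomal RNA gene CT010467.1 took 5.28% of the counts, against at most 0.0679% in the other libraries. Ahrr itself was read at 4.29 to 5.32 CPM (counts scaled to the library total) in the wild-type and 1.21 to 2.57 CPM in the Ahrr-deficient libraries (log2 fold change -1.21, SE 0.26, edgeR adjusted p 0.0151). All 10 listed macrophage markers were tested, and their summed level was 23551 to 29074 CPM in the wild-type group against 17657 to 24864 CPM in Ahrr-deficient libraries. Most of this sum was Lyz2, with means of 19958 CPM in wild-type and 15185 CPM in Ahrr-deficient libraries (edgeR adjusted p 0.0926). Of the 10 markers Mrc1 rose and Csf1r and Cd14 fell. Of 5 alveolar macrophage markers, all tested, 3 rose and 0 fell. Those that rose were Itgax, Car4 and Pparg (log2 fold changes 1.70, 3.10 and 0.64). Siglecf and Chil3 had log2 fold changes of 0.39 and -0.13 (edgeR adjusted p 0.196 and 0.42). The list, mostly Chil3, summed to 34485 to 37189 CPM in the wild-type group against 34066 to 36386 CPM in Ahrr-deficient libraries. No listed marker of B cells, mast cells, eosinophils or fibroblasts was in the annotated table. Neutrophil markers summed to 0.696 to 2.38 CPM. Of 6 conventional dendritic cell markers 3 were in the table, without Flt3, Cd209a and Ccr7. The sum of these 3 was higher in Ahrr-deficient (72.0 to 93.2 CPM) than in wild-type libraries (57.6 to 62.1 CPM). That difference came from Clec9a, with means of 54.5 CPM in wild-type and 81.2 CPM in Ahrr-deficient libraries. The means of Zbtb46 (5.48 and 4.43 CPM, edgeR adjusted p 0.228) and Xcr1 (0.291 and 0.183 CPM, too low to test) went the other way. Of 6 plasmacytoid dendritic cell markers, Siglech and Ly6d were absent from the table and Ccr9 was too low to test. The list summed to 130 to 143 CPM in the wild-type group against 137 to 147 CPM in Ahrr-deficient libraries. This sum was mostly Bst2, Tcf4 and Runx2, and Bst2 is also among the interferon-stimulated genes described here. The part of any of these markers in the results below was not tested. In bulk RNA, fewer cells that express a gene and less RNA per cell cannot be told apart.

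Type I interferons bind the IFNAR receptor, whose kinases JAK1 and TYK2 activate transcription factors of the STAT family. STAT2 and IRF9 are parts of the complex ISGF3, which binds interferon-stimulated response elements (ISREs) in promoters and switches on many genes, whose products sense viral RNA, degrade it, block translation or restrain viruses at membranes. Macrophages keep many of these genes at a low tonic level without infection, and several of them, such as Irf7 and the RNA sensors, feed back on interferon production. The product of Ahrr competes with the aryl hydrocarbon receptor (AhR), a factor that is activated by small ligands, and so holds it back. The comparison asks how transcripts differ between wild-type cells and cells labelled as deficient in Ahrr. Neither the Ahrr protein nor the activity of AhR was measured.

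Promoters were searched first for the core letters of the ISRE on either strand, that is GAAA, any 2 bases and GAAA again, because ISGF3 binds this element. RefSeq promoter windows on GRCm38.p6 ran from 250 bases before to 50 bases after the transcription start. They were found by symbol for 38 of the 49 genes. Oas2, Dhx58 and Rtp4, which fell in Ahrr-deficient cells, had no window and were not searched. The core letters occurred in 20 of the 38 (52.6%), against 3.99% of 27025 genes with a window. They are shown for the 5 genes with the smallest adjusted p among the genes that changed and held the letters. Capitals mark each match, on the strand of the gene, so a match on the opposite strand reads TTTC, 2 bases and TTTC.
Oas3: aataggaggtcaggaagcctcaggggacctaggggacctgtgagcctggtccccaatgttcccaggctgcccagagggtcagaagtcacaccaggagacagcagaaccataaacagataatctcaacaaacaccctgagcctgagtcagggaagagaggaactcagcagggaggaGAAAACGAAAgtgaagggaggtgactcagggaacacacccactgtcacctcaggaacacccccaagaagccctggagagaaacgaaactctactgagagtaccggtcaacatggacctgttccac
Ifitm2: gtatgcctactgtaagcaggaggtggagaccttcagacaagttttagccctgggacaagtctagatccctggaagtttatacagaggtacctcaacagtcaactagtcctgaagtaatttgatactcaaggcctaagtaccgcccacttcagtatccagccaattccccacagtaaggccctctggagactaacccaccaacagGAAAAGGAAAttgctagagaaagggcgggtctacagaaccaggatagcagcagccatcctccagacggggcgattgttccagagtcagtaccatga
Gbp7: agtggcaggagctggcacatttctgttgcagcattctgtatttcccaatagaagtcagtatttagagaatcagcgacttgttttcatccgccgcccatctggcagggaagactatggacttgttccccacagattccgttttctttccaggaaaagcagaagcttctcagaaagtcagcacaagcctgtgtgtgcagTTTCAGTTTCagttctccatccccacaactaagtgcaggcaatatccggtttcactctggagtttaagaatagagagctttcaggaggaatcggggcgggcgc
Ifit3: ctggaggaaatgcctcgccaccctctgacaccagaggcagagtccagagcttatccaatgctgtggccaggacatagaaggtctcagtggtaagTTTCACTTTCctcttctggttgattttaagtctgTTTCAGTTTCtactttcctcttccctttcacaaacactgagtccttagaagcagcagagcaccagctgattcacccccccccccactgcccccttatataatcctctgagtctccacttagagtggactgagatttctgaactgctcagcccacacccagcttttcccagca
Slfn5: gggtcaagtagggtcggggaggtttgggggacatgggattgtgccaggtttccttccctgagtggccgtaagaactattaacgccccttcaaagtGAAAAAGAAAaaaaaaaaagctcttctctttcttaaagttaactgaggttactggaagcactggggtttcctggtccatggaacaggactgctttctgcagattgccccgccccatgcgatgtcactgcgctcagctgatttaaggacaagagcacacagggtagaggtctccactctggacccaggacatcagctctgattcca
These windows lie at chr5:120777610-120777909 (minus strand, Oas3), chr7:140955912-140956211 (minus strand, Ifitm2), chr3:142530086-142530385 (plus strand, Gbp7), chr19:34583279-34583578 (plus strand, Ifit3) and chr11:82951852-82952151 (plus strand, Slfn5). The match began 75 bases before the start in Oas3, 46 in Ifitm2, 53 in Gbp7 and 155 in Slfn5, and Ifit3 had matches 156 and 122 bases before it. Oas3, Ifitm2, Ifit3 and Slfn5 fell in Ahrr-deficient cells and Gbp7 rose.

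The core letters occurred at similar shares in genes that fell and in genes that did not pass the threshold. Among genes with a window, they were found in 6 of 12 that fell (50%) and in the 1 that rose. They also occurred in 11 of 21 genes not past the threshold (52.4%). A longer form, the core letters followed by CT, which is part of the same matches, was in 1 of the 12 genes that fell and in 8 of the 21 not past the threshold, against 0.303% of all genes with a window. The core letters bound by AhR with its partner ARNT, GCGTG, were in 10 of the 38 (26.3%, against 35.2% of all genes with a window and 56.9% of the tested ones), 3 of them among the genes that fell. No test was made of these shares, and a match of letters does not show that a factor binds there.

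**Figure D1:**
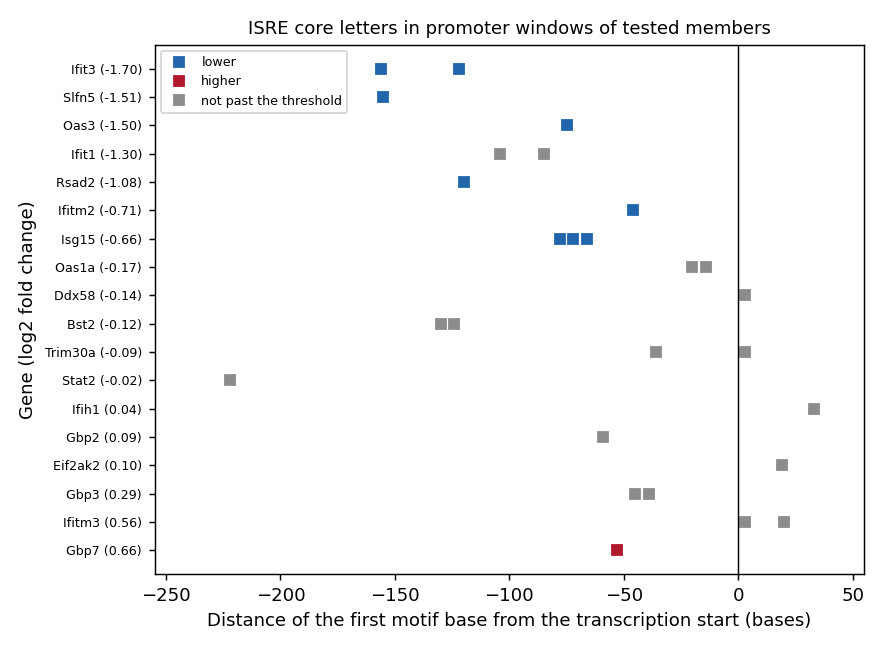
Position of each match to the ISRE core letters in the promoter windows of 18 tested genes, in bases from the transcription start; genes are ordered by log2 fold change, given in brackets, and coloured by the edgeR call. Matches lie within 222 bases before and 33 bases after the start, and genes with a match run from Ifit3 at -1.70 to Gbp7 at 0.66.

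A subset of the interferon-stimulated genes was lower in Ahrr-deficient cells, and most of the others did not pass the threshold. With edgeR's quasi-likelihood test and p-values adjusted over all 11408 tested genes, 15 of the 44 genes fell and 1 rose at an adjusted p under 0.05, or 36.4% of the 44 against 19.6% of all tested genes. The 15 are 34.1% of the 44, where 9.95% of all tested genes fell, and the 1 is 2.27%, where 9.62% of all tested genes rose. The fall was at least 2-fold for 10 genes, namely Oas2, Oasl2, Ifit3, Slfn5, Oas3, Irf7, Trim25, Isg20, Ifit2 and Rsad2, and Rtp4 was just short of it before rounding. The 10 are 22.7% of the 44 against 2.6% of all tested genes. None rose by 2-fold or more, as 1.91% of all tested genes did. The median log2 fold change was -0.20 over the 44 genes and 0.01 over all tested genes, and 32 of the 44 were on the negative side, against 49.1% of all. The list was drawn up with earlier results of these libraries known, so these counts describe it and do not test it.

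Leaving out 1 library moved the count of called genes from 16 to as few as 8 without WT 1 and as many as 22 without Ahrr-deficient 1. It was 9 without Ahrr-deficient 2 and 10 without each of the remaining 3 libraries. Over all genes tested in the same fits the share called moved likewise, from 19.6% to 6.07% without WT 1 and 32.6% without Ahrr-deficient 1, where 18.2% and 48.9% of the tested interferon-stimulated genes were called. All 16 genes kept their direction in each of these fits. Without both WT 2 and Ahrr-deficient 1, 17 genes fell and 1 rose. Only 6 of the 16 genes kept the call in all 17 alternative fits: Oas2, Oas3, Oasl2, Dhx58, Ifitm2 and Rtp4. With all libraries thinned to the smallest total, Ifit2, Ifit3, Irf7, Isg15 and Rsad2 lost the call and Isg20 was too low to test. DESeq2 in place of edgeR did not call Isg15, Isg20 and Slfn5, and it called Ifit1 in addition.

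**Figure D2:**
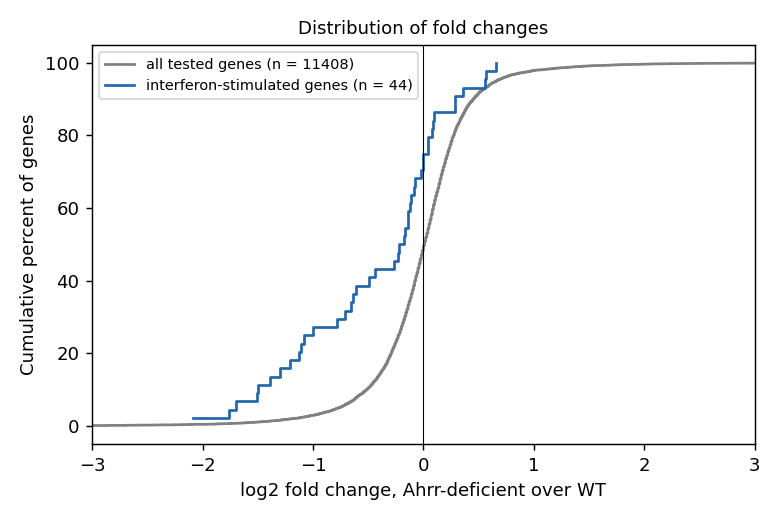
Cumulative percent of genes (vertical axis) at or below each log2 fold change of Ahrr-deficient over wild-type cells (horizontal axis), for the 44 tested interferon-stimulated genes and for all 11408 tested genes. Of the 44 genes 72.7% lie below 0, against 49.1% of all tested genes, and their curve ends at 0.66.

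**Figure D3:**
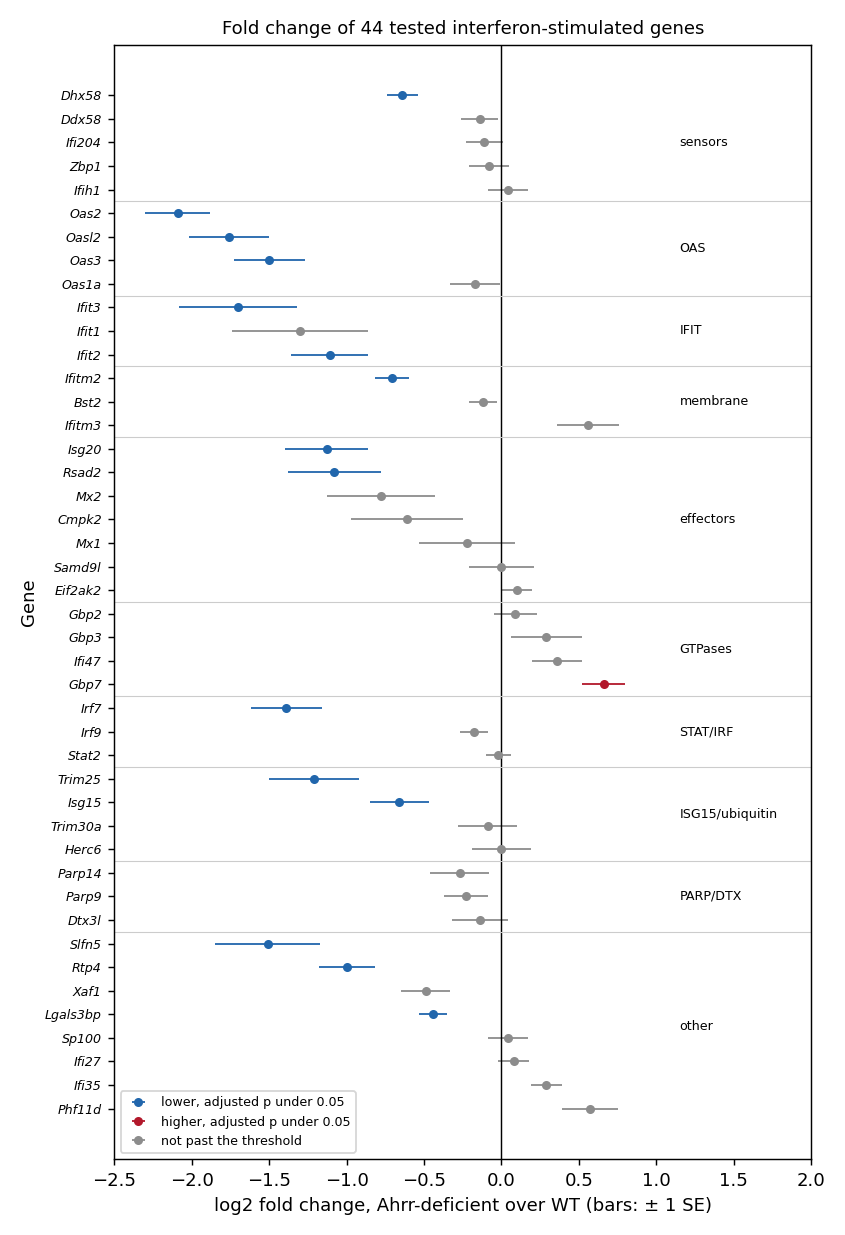
Log2 fold change of each of the 44 tested genes, with bars of 1 standard error, in functional groups; blue marks genes that fell, red the gene that rose and grey those not past the threshold in edgeR. Values run from -2.09 for Oas2 to 0.66 for Gbp7, and falls of more than 2-fold occur in the OAS, IFIT, effector, STAT/IRF, ISG15/ubiquitin and other groups.

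The oligoadenylate synthetases make 2'-5' oligoadenylates from ATP when they bind double-stranded RNA, which activates the nuclease RNase L. Of the 6 listed OAS genes 4 were tested and 3 fell. Oas2 (ENSMUSG00000032690.16, chromosome 5, 120730333 to 120749853) was read at 12.1, 14.9 and 15.8 CPM in WT 1 to 3 and at 5.06, 3.10 and 3.44 CPM in Ahrr-deficient 1 to 3. Every wild-type library lay above every Ahrr-deficient one, and the gap was wider than the spread in either group. With means of 14.3 ± 1.96 and 3.87 ± 1.05 CPM (SD, n = 3), Oas2 fell by 2.09 on the log2 scale (SE 0.21, edgeR adjusted p 0.00113), the strongest fall among the 44 genes.

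Oas3 (chromosome 5, 120753098 to 120777661), the neighbour of Oas2, was read at 8.89, 7.46 and 9.53 CPM in the wild-type group against 3.66, 2.5 and 4.35 CPM in Ahrr-deficient libraries. It fell by 1.5 on the log2 scale (SE 0.23, edgeR adjusted p 0.00479). Oasl2 (chromosome 5, 114896936 to 114912234), an OAS-like gene whose protein carries ubiquitin-like domains, had 6.29, 7.46 and 7.43 CPM in the wild-type group against 3.66, 2.14 and 1.52 CPM in Ahrr-deficient libraries (log2 fold change -1.76, SE 0.26, edgeR adjusted p 0.00411). The groups did not overlap for either gene, and all 3 OAS calls held in each fit without 1 library. Oas1a, from the same chromosome 5 cluster as Oas2 and Oas3, did not follow them. It had 14.3, 12.2 and 14.6 CPM in wild-type against 8.72, 13.3 and 14.7 CPM in Ahrr-deficient libraries, and only Ahrr-deficient 1 was below the wild-type range (log2 fold change -0.17, SE 0.16, edgeR adjusted p 0.457). Oas1a shares 47.6% of its 75-base windows with Oas1g, a near copy that was read at 0.281 to 1.68 CPM and was not tested, so the split of reads between them is uncertain.

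IFIT proteins bind viral RNA that lacks the methylated cap of host messages and block its translation. Of the 4 listed genes, all within 1 stretch of chromosome 19, Ifit1, Ifit2 and Ifit3 were tested, and Ifit2 and Ifit3 fell. Ifit2 (chromosome 19, 34550694 to 34576419) had 13.6, 14.6 and 15.6 CPM in the wild-type group against 12.1, 5.35 and 7.08 CPM in Ahrr-deficient libraries. The groups did not overlap, but Ahrr-deficient 1 was close to the wild-type level (log2 fold change -1.11, SE 0.25, edgeR adjusted p 0.0186). Ifit3 (chromosome 19, 34583531 to 34588731) had 3.65, 2.7 and 3.22 CPM in the wild-type group against 2.81, 0.912 and 0.708 CPM in Ahrr-deficient libraries. Ahrr-deficient 1, with 10 counts, was within the wild-type range (log2 fold change -1.70, SE 0.38, edgeR adjusted p 0.0167). Of the 75-base windows of Ifit3, 41.1% also occur in Ifit3b, which held 0 to 1.12 CPM, so the 2 genes are not cleanly separated. Ifit1 had 32, 20 and 11 counts in wild-type and 1, 41 and 5 counts in Ahrr-deficient libraries. Its log2 fold change of -1.30 (SE 0.44) missed the threshold in the main fit (edgeR adjusted p 0.0683). Ifit1 was called lower in 3 of 15 alternative fits. These were DESeq2 (-1.60, DESeq2 adjusted p 0.0492) and the fits with replicate number as a block. The block fits gave -1.86 and -1.94 (edgeR adjusted p 0.0195 and 0.0182). Both IFIT calls were lost in most fits without 1 library: that of Ifit2 without any library but Ahrr-deficient 1 (edgeR adjusted p 0.0588 to 0.0714), and that of Ifit3 without WT 1, WT 3, Ahrr-deficient 2 or Ahrr-deficient 3 (0.0502 to 0.125).

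Cytosolic sensors recognise viral nucleic acid: Ddx58 encodes RIG-I and Ifih1 encodes MDA5, 2 RNA helicases that signal through MAVS. Dhx58 encodes LGP2, a related helicase without the signalling domain, Zbp1 binds Z-form nucleic acid and can trigger cell death, and Ifi204 encodes a DNA-binding protein of the p200 family. Only Dhx58 (chromosome 11, 100694884 to 100704271) fell among these 5. It had 27.2, 23.8 and 27.0 CPM in the wild-type group against 18, 16.7 and 18.6 CPM in Ahrr-deficient libraries, with no overlap and a small spread in both groups (log2 fold change -0.64, SE 0.10, edgeR adjusted p 0.00467). Ddx58 and Ifih1 stayed within 0.14 of no change on the log2 scale. Ddx58 had 43.8 to 56.7 CPM in the wild-type group against 42.6 to 55.4 CPM in Ahrr-deficient libraries (log2 fold change -0.14, SE 0.12), and Ifih1 had 46.8 to 51.7 and 48.5 to 63.6 CPM (0.04, SE 0.13). The ranges overlapped for both helicases. Zbp1 (-0.08, SE 0.13) and Ifi204 (-0.11, SE 0.12) were not past the threshold either. A non-coding gene on the opposite strand, Dhx58os, overlaps 4.31% of the exon length of Dhx58, and whether counting used strand is not given in the sources used here. Exons of Irf7, Slfn5, Ifi35, Gbp2, Eif2ak2, Ifi47, Usp18, Parp9 and Dtx3l also overlap a gene on the other strand.

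The transcription factors of the pathway did not move together. Irf7, the factor that amplifies interferon production once it has been induced, fell. It lies at chromosome 7, 141262706 to 141266481, and had 12.1, 10.5 and 11.2 CPM in the wild-type group against 7.59, 4.39 and 3.34 CPM in Ahrr-deficient libraries. The groups did not overlap, and the highest Ahrr-deficient value was that of replicate 1 (log2 fold change -1.39, SE 0.23, edgeR adjusted p 0.00631). Stat2 and Irf9, the genes of 2 ISGF3 subunits, were measured closely and differed little. Stat2 had 63.1, 56.8 and 63.7 CPM in the wild-type group against 66.9, 60.1 and 64.6 CPM in Ahrr-deficient libraries (log2 fold change -0.02, SE 0.08, edgeR adjusted p 0.885). Irf9 had 30.6 to 31.9 CPM in the wild-type group against 27.6 to 29.8 CPM in Ahrr-deficient libraries, which do not overlap, but its log2 fold change of -0.18 (SE 0.09) did not pass the threshold (edgeR adjusted p 0.197). The fall of Irf7 held in each fit without 1 library and was lost when all libraries were thinned to the smallest total (-0.92, edgeR adjusted p 0.0582).

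**Figure D4:**
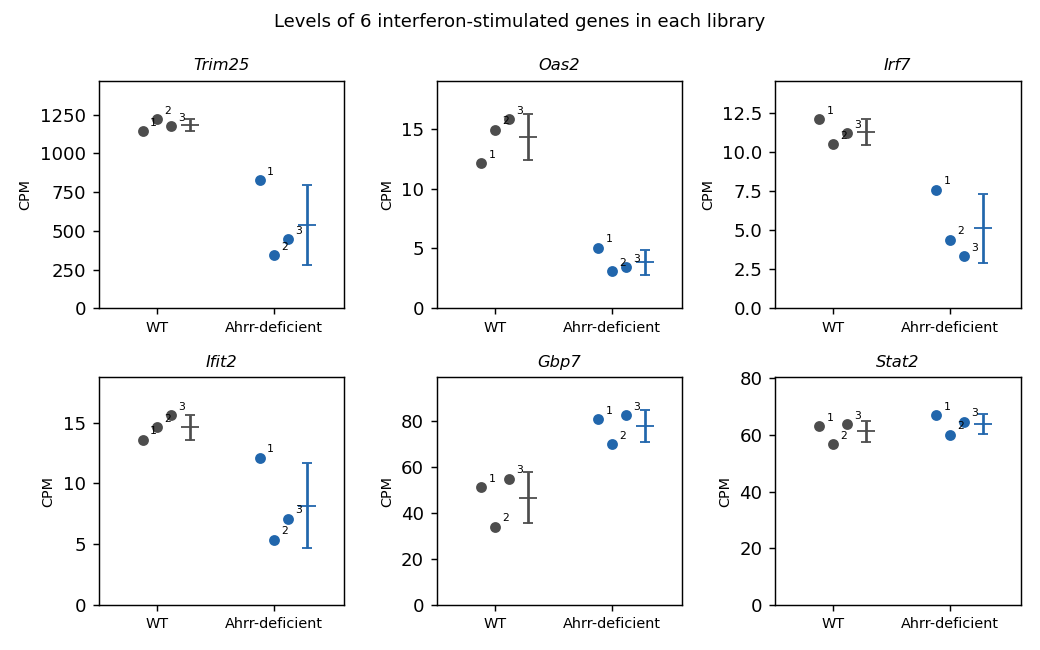
CPM of Trim25, Oas2, Irf7, Ifit2, Gbp7 and Stat2 in each library, with the replicate number beside each point and the mean ± SD (n = 3) at the side of each group; every vertical axis starts at 0. Trim25, Oas2, Irf7 and Ifit2 are lower in all Ahrr-deficient libraries, with replicate 1 the highest of them, Gbp7 is higher in all of them, and the groups of Stat2 overlap.

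ISG15 is a ubiquitin-like protein that is attached to other proteins, a reaction in which Herc6 is the mouse ligase and Trim25 can act, while Usp18 removes it. Trim25 also attaches ubiquitin chains that help activate RIG-I. Of all 44 genes Trim25 had the highest wild-type level per exon length, 205 RPKM (CPM per kilobase of exon), ahead of Lgals3bp at 161 RPKM, where the median gene had 5.80 RPKM and the lowest, Mx2, 0.561 RPKM. Trim25 (ENSMUSG00000000275.16, chromosome 11, 88999376 to 89020293) was read at 1145, 1223 and 1177 CPM in WT 1 to 3 and at 828, 342 and 446 CPM in Ahrr-deficient 1 to 3. The wild-type libraries were within a narrow range and all Ahrr-deficient libraries were below it, spread widely. With means of 1182 ± 39.3 and 538 ± 256 CPM (SD, n = 3), Trim25 fell by 1.21 on the log2 scale (SE 0.29, edgeR adjusted p 0.0216). That call held without Ahrr-deficient 1 and was lost without any other single library (edgeR adjusted p 0.0511 to 0.0868), and over these 6 fits the log2 fold change ran from -1.68 to -0.96.

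Isg15 itself (chromosome 4, 156199424 to 156200818) had 4.65, 3.81 and 4.76 CPM in the wild-type group against 2.25, 3.29 and 2.73 CPM in Ahrr-deficient libraries. The groups did not overlap, and its fall was the weakest call of the 16 (log2 fold change -0.66, SE 0.19, edgeR adjusted p 0.0431). It was lost without any single library other than Ahrr-deficient 1 (edgeR adjusted p 0.0755 to 0.18). Herc6 (16.0 to 23.4 CPM in wild-type, 18 to 29.0 CPM in Ahrr-deficient libraries) and Trim30a (90.0 to 109 and 75.3 to 133 CPM), a regulator of Toll-like receptor signalling, overlapped between the groups. Without Ahrr-deficient 1 Trim30a fell by 0.35 on the log2 scale (edgeR adjusted p 0.0239). Usp18 held 0.317 to 0.701 CPM in all 6 libraries and was not tested.

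The effector genes were low in both groups apart from Eif2ak2 and Samd9l. Rsad2 encodes viperin, which makes a chain-terminating nucleotide, and Cmpk2, its neighbour on chromosome 12, encodes a nucleotide kinase. Rsad2 (chromosome 12, 26442746 to 26456452) had 6.06, 7.78 and 6.30 CPM in the wild-type group against 5.06, 3.65 and 1.82 CPM in Ahrr-deficient libraries, with no overlap (log2 fold change -1.08, SE 0.30, edgeR adjusted p 0.0363). Isg20, an exonuclease gene (chromosome 7, 78913424 to 78920396), had 2.14, 2.06 and 1.82 CPM in the wild-type group against 1.12, 0.864 and 1.21 CPM in Ahrr-deficient libraries. It rested on 4 counts in Ahrr-deficient 1 and 47 in WT 1 (log2 fold change -1.13, SE 0.27, edgeR adjusted p 0.0212). The call of Rsad2 was lost without any single library but Ahrr-deficient 1 (edgeR adjusted p 0.0752 to 0.109), and that of Isg20 without Ahrr-deficient 2 or any single wild-type library (0.0524 to 0.164).

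Mx1, Mx2, Cmpk2 (log2 fold change -0.61, SE 0.36), Eif2ak2 and Samd9l were not past the threshold. The 2 Mx genes encode dynamin-like GTPases that trap viral ribonucleoproteins, and laboratory strains such as C57BL/6 carry defective alleles of them. Mx1 had 5.74, 5.87 and 6.30 CPM in the wild-type group against 9.84, 3.96 and 5.06 CPM in Ahrr-deficient libraries, so the Ahrr-deficient values lay on both sides of the wild-type range. Mx2, which the deposited table lists as a polymorphic pseudogene, had 35, 15 and 15 counts in wild-type and 1, 56 and 11 in Ahrr-deficient libraries (log2 fold change -0.78, SE 0.35, edgeR adjusted p 0.141). Eif2ak2, the gene of the kinase PKR that halts translation, had means of 53.9 ± 4.08 and 61.4 ± 7.34 CPM (SD, n = 3) in the wild-type and Ahrr-deficient libraries (0.10, SE 0.10). Samd9l, a gene that restrains poxviruses and growth, had 134, 123 and 145 CPM in the wild-type group against 199, 104 and 126 CPM in Ahrr-deficient libraries. Its fold change depended on Ahrr-deficient 1: the log2 value was 0.00 (SE 0.21) with that library and -0.32 (edgeR adjusted p 0.0256) without it.

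Among the genes that act at membranes, Ifitm2 and Ifitm3 encode small proteins that hold back viral fusion in endosomes, and Bst2 encodes tetherin, which keeps new virions on the cell surface. Ifitm2 (chromosome 7, 140954837 to 140955987) had 23.8, 23.5 and 23.7 CPM in the wild-type group against 16.0, 14.0 and 16.4 CPM in Ahrr-deficient libraries. Both groups were tight and did not overlap (log2 fold change -0.71, SE 0.11, edgeR adjusted p 0.00527). Ifitm3, near Ifitm2 on chromosome 7, had the opposite order without passing the threshold. It was read at 2.69, 2.06 and 2.94 CPM in the wild-type group against 3.94, 3.82 and 4.45 CPM in Ahrr-deficient libraries (0.56, SE 0.20, edgeR adjusted p 0.075). Bst2 overlapped, at 38.9 to 45.7 CPM in the wild-type group against 38.8 to 43.9 CPM in Ahrr-deficient libraries (-0.12, SE 0.09). Transcripts of other annotated loci, Gm45717 among them, hold 42.0% of the 75-base windows of Ifitm2, so its count is uncertain.

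The interferon-inducible GTPases, which gather on vacuoles that hold pathogens and respond strongly to interferon-gamma, did not fall. All 4 had a positive log2 fold change, and Gbp7 was the only one of the 44 genes that rose. Gbp7 (chromosome 3, 142530342 to 142550149) had 51.0, 34.0 and 54.8 CPM in the wild-type group against 80.7, 69.8 and 82.3 CPM in Ahrr-deficient libraries, with no overlap. With means of 46.6 ± 11.1 and 77.6 ± 6.83 CPM (SD, n = 3), Gbp7 rose by 0.66 on the log2 scale (SE 0.14, edgeR adjusted p 0.0136). Without Ahrr-deficient 3 the value was 0.61 and the edgeR adjusted p 0.059. Gbp7 shares 11.4% of its 75-base windows with Gm43802 or Gbp3. Gbp3 (0.29, SE 0.23) and Gbp2 (0.09, SE 0.14), its neighbours on chromosome 3, and Ifi47 (0.36, SE 0.16, edgeR adjusted p 0.144) were not past the threshold. For these 3 genes, as for Gbp7, the lowest of the 6 values was in WT 2, the library with the high ribosomal RNA share.

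Parp9 and Dtx3l form a complex of an ADP-ribosyltransferase and a ubiquitin ligase and share a start region on opposite strands of chromosome 16, and Parp14 lies beside them. None of the 3 passed the threshold. Parp14 had 147, 142 and 153 CPM in the wild-type group against 177, 101 and 114 CPM in Ahrr-deficient libraries. Replicate 1 was above and replicates 2 and 3 were below all wild-type values, and Dtx3l and Parp9 showed the same order. Without Ahrr-deficient 1 the log2 fold changes were -0.55 for Parp14, -0.39 for Dtx3l and -0.39 for Parp9, with edgeR adjusted p of 0.00118, 0.0116 and 0.0138. With all libraries they were -0.27 (SE 0.19), -0.14 (SE 0.18) and -0.23 (SE 0.14).

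Of the 8 remaining genes that were tested, Slfn5, Rtp4 and Lgals3bp fell. Rtp4 (chromosome 16, 23520291 to 23614222), which encodes a receptor transporter protein that also acts against flaviviruses, had 6.24, 6.82 and 7.71 CPM in the wild-type group against 4.22, 3.58 and 3.34 CPM in Ahrr-deficient libraries. There was no overlap (log2 fold change -1.0 after rounding, SE 0.18, edgeR adjusted p 0.0078). Rtp4 shares 12.4% of its 75-base windows with Gm45338, which overlaps its exons on the same strand. Slfn5, a Schlafen family gene (chromosome 11, 82951349 to 82964840), had 14.4, 18.7 and 13.3 CPM in the wild-type group against 10.7, 5.86 and 2.83 CPM in Ahrr-deficient libraries, which spread widely below the wild-type range. It fell by 1.51 on the log2 scale (SE 0.34, edgeR adjusted p 0.0183). The call was lost without WT 1, WT 2 or Ahrr-deficient 2 (0.062 to 0.0677).

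Lgals3bp, the gene of a secreted glycoprotein that binds galectins (chromosome 11, 118392751 to 118402092), had 475, 416 and 484 CPM in the wild-type group against 344, 350 and 369 CPM in Ahrr-deficient libraries. The fall was small and even (log2 fold change -0.44, SE 0.09, edgeR adjusted p 0.0109), and without WT 1 its adjusted p was 0.059. Xaf1, a gene linked to apoptosis, did not overlap between the groups, at 10.1 to 13.7 and 7.97 to 9.40 CPM, but missed the threshold (-0.49, SE 0.16, edgeR adjusted p 0.0608). Phf11d and Ifi35 were higher in every Ahrr-deficient library than in any wild-type one without passing it (0.57 and 0.29, edgeR adjusted p 0.0593 and 0.0766). Ifi27 and Sp100 differed by less than 0.1 on the log2 scale.

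**Figure D5:**
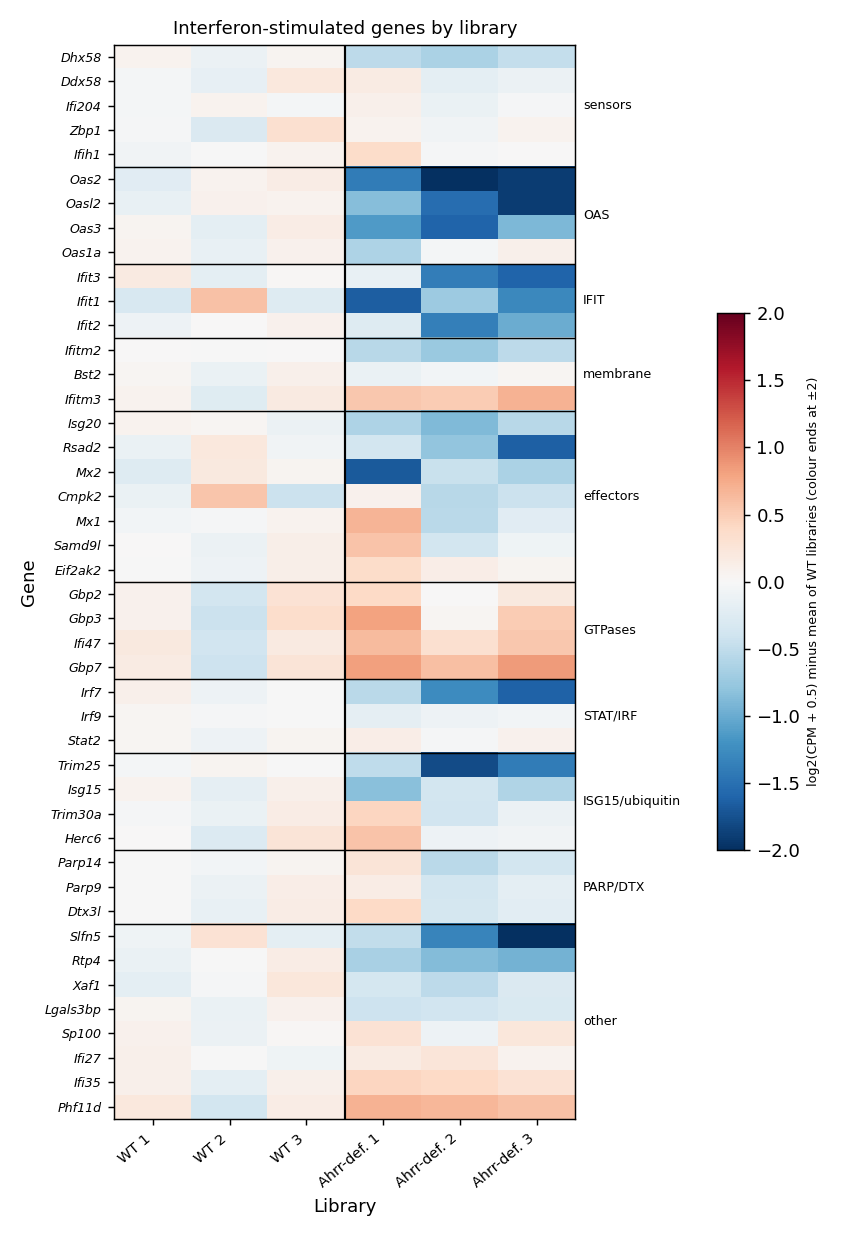
Log2(CPM + 0.5) of the 44 tested genes in each library, as a difference from the mean of the 3 wild-type libraries (blue lower, red higher, colour ends at ±2). The OAS rows other than Oas1a and the rows of Irf7 and Trim25 are blue in all Ahrr-deficient columns, and the column of Ahrr-deficient 1 holds more red rows than those of Ahrr-deficient 2 and 3.

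The 3 Ahrr-deficient cultures were not alike, over all genes as well as in these. On the second principal component of all tested genes, with 20.4% of the variance, Ahrr-deficient 1 was at -34.8 and each of the other 5 libraries was above 0. As a difference from the wild-type mean on the scale log2(CPM + 0.5), the median of the 44 genes was 0.07 in Ahrr-deficient 1, -0.37 in Ahrr-deficient 2 and -0.21 in Ahrr-deficient 3, and lay between -0.11 and 0.09 in the wild-type libraries. Over all tested genes the medians were 0.05, 0.10 and 0.08 in the Ahrr-deficient libraries. Ahrr-deficient 1 had the highest of the 3 Ahrr-deficient values for 29 of the 44 genes (65.9%), against 37.3% of all tested genes. In replicates 2 and 3 together, 24 of the 44 genes (54.5%) were below every wild-type library, against 19.8% of all tested genes, and for 6 of the 24 (25%) replicate 1 was not, against 35.5% of the corresponding genes over the whole table. Ahrr-deficient 1 is also the library with the lowest total, and the part of depth in this pattern was not tested.

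Counted over all 6 libraries, 18 of the 44 genes had every Ahrr-deficient value below every wild-type value and 5 had every value above. Over all tested genes these shares were 12.8% and 23.9%, or 36.6% in either direction. WT 2, with its ribosomal reads, had the lowest TMM factor, 0.904, so the count was repeated on CPM scaled by these factors, an alternative chosen after seeing the data: 20 genes were then lower and 5 higher, against 19.7% and 19.1% of all tested genes.

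Genes that stand before the interferon-stimulated genes in the pathway were compared as a second list of 66 symbols, of which 42 were in the table and 40 were tested. None of the 21 interferon genes listed, among them Ifnb1 and the Ifna genes, was in the annotated table, whose genes all had at least 10 counts over the 6 libraries. Of the 40 genes 7 rose and 6 fell (17.5% and 15.0%, against 9.62% and 9.95% of all tested genes). Of the type I receptor chains, Ifnar1 had 43.8 to 48.8 CPM in the wild-type group against 43.1 to 44.8 CPM in Ahrr-deficient libraries (log2 fold change -0.15, SE 0.08, edgeR adjusted p 0.218), and Ifnar2 fell from 56.5 to 60.8 CPM to 46.2 to 52.3 CPM (-0.32, SE 0.09, edgeR adjusted p 0.0375). Irf3, the factor that starts interferon production, had 51.3 to 54.9 CPM in the wild-type group against 42.7 to 49.9 CPM in Ahrr-deficient libraries and was not past the threshold (-0.24, SE 0.09, edgeR adjusted p 0.0922).

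Irf4, a factor of alternatively activated macrophages, rose from 18.4 to 24.8 CPM to 53.1 to 72.9 CPM (log2 fold change 1.4, SE 0.13, edgeR adjusted p 8.97e-04). Its relative Irf8, which specifies the myeloid lineage, fell from 155 to 179 CPM to 128 to 137 CPM (-0.44, SE 0.07, edgeR adjusted p 0.00631). Tlr4, the receptor of bacterial lipopolysaccharide, rose from 145 to 183 CPM to 344 to 377 CPM (1.10, SE 0.11), and so did Ptpn2, a phosphatase that acts on JAK1, from 23.7 to 27.4 CPM to 36.8 to 55.4 CPM (0.83, SE 0.14). Tlr9, which senses CpG DNA, fell from 8.73 to 13.0 CPM to 3.55 to 6.37 CPM (-1.18, SE 0.25), as did Ikbke, the gene of a kinase that activates IRF3 and IRF7, from 230.0 to 305 CPM to 137 to 208 CPM (-0.69, SE 0.15). The edgeR adjusted p values of these 4 genes were 0.00101, 0.00637, 0.0146 and 0.0164. Of the list, 5 genes were called without WT 1, 7 without WT 2, 6 without WT 3, Ahrr-deficient 2 or Ahrr-deficient 3, and 17 without Ahrr-deficient 1 (12.5% to 17.1% and 42.5%, against 6.07% to 10.3% and 32.6% of all genes in the same fits).

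Another list held 82 other genes known to respond to interferon, of which 76 were in the table and 64 were tested. In it 8 genes fell and 5 rose (12.5% and 7.81%), shares close to the 9.95% and 9.62% of all tested genes, and the median log2 fold change was -0.07. Uba7, the enzyme that activates ISG15, fell from 117, 103 and 125 CPM to 86.3, 74.1 and 86.4 CPM (-0.57, SE 0.09, edgeR adjusted p 0.0056). Ifitm1, a relative of Ifitm2, fell from 1.55 to 2.24 CPM to 0.101 to 0.844 CPM (-2.54, SE 0.44, edgeR adjusted p 0.00656), the lowest value resting on 1 count. Epsti1 (-0.73, SE 0.10, edgeR adjusted p 0.0031), Slfn8 (-0.73, SE 0.19) and Ly6e, which restricts coronaviruses (-0.56, SE 0.15), also fell, and the Schlafen gene Slfn4 rose (1.65, SE 0.40), with edgeR adjusted p values of 0.0287, 0.0274 and 0.0232 for the last 3. Without Ahrr-deficient 1, 20 genes were called (30.8%, against 32.6% of all genes tested in that fit), and without any other single library 3 to 5 (4.69% to 7.69%, against 6.07% to 10.3%).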

How the data were processed

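Polyadenylated RNA was converted to libraries from 100 ng of RNA with a TruSeq kit and read as single 75 bp reads, per the labels' protocols. The authors deposited raw read counts of 53465 features without identifiers, and a normalized signal (counts divided by 1 size factor per library) with identifiers for 16111 genes. Size factors (median of ratios) were computed anew from the raw counts, and multiplying by them made 100% of the normalized values whole reads (within 1e-06 of a read). These equalled the raw counts of all features with at least 10 counts. The remaining features held 0.0232% to 0.0511% of a library's counts and entered the totals. CASAVA 1.8.2, fastp 0.20.0, STAR 2.7.10b, SAMtools 1.16.1, R 4.3.1, DESeq2 1.40.2 and the build mm10 are named in the submitters' processing notes; the counting program, its use of strand and the annotation are not given in the sources used here.

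For the deposited counts, edgeR 4.0.16 (R 4.3.3) was run in its quasi-likelihood form (TMM scaling, filterByExpr, genotype as the only term, two-sided, Benjamini-Hochberg over 11408 genes, threshold 0.05), and checked on simulated counts. Standard errors come from the fold change and the F statistic. CPM are counts over the library total, and RPKM divide these by the exon length in GENCODE M21 (GRCm38), the source of coordinates. The floor of 3 counts was 0.072 to 0.844 CPM and covers counting error only. Replicate pairs differed beyond sampling noise (chi-square per degree of freedom 5.79 to 175). The values 70 and 175 were those of the pairs with WT 2, and the other pairs ran from 5.79 to 17.2.

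The members and lists were chosen with earlier results of these data known. Values in all libraries are given for every member past the threshold; other members are given by library values, ranges or the fold change alone. From the other lists Ifnar1, Ifnar2, Irf3 and up to 6 genes per list with the smallest adjusted p are named. Alternatives were RLE and upper-quartile scaling, other filters, DESeq2 1.42.0, limma-voom (limma 3.58.1), a replicate block, thinning, GC offsets and left-out libraries.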

Additional observations from a re-analysis of the deposited data

How the results depend on the processing

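The 44 members gave 739 values over 17 alternatives, of which 672 stayed called or not called, 51 lost the call, 15 gained one and 1 took a call with the other sign: Samd9l, at -0.32 without Ahrr-deficient replicate 1 (-0.32 to 0.20 with any 1 library left out). The sign differed from the reported one in 42 of the 739 values, none of them of a called member. Depth limits the low genes most: Ifit1 and Mx2 had 1 count each in Ahrr-deficient replicate 1. The cause of the changes below was not tested. Of members, 16 were called; thinned to the smallest total, 10 were, and with 1 library left out between 8 and 22. DESeq2 called 14, limma-voom 18, and RLE and upper-quartile scaling 16 each. Their median log2 fold change, -0.20, was -0.39 to -0.11 with 1 library left out and -0.38 without WT replicate 2 and Ahrr-deficient replicate 1, a setting chosen after seeing the data. Of all tested genes 2232 were called; thinned 1243, with 1 library left out 694 to 3857. Other interferon-inducible genes numbered 13; with GC offsets 8, thinned 6, with 1 library left out 3 to 20. Pathway genes numbered 13; thinned 8, with 1 library left out 5 to 17.

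Same-numbered libraries come from different mice. Their deviations from the group means correlated at -0.169, 0.071 and 0.129 for numbers 1, 2 and 3. With 3 libraries in each group, these values cannot show whether same-numbered cultures were related. The main fit did not treat the numbers as pairs. With the replicate block 1390 of all tested genes, 14 members, 7 other interferon-inducible genes and 9 pathway genes were called, and with GC offsets and the replicate block 1275, 13, 7 and 12.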
